A study of Rattus norvegicus with 18 samples.

Results

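The genes described here encode 10 m6A reader proteins, chosen by name: Ythdc1, Ythdc2, Hnrnpa2b1, Ythdf1, Ythdf2, Ythdf3, Igf2bp2, Igf2bp3, Fmr1 and Elavl1. Each name had 1 row in the deposited gene table, so that the members are 10 of 18923 genes, with 13 of 24143 transcripts. All 10 passed the filter on low values, which left 11708 genes to test. Igf2bp3 passed it only through the 2-month libraries, since its level was at least 1 FPKM in 3 of 9 libraries, and the counts of called readers and of readers whose ages lie apart are therefore also given without it.

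The study took nucleus pulposus, the soft hydrated centre of the spinal disc, from rats aged 2, 10 and 20 months, to ask how the m6A mark and gene expression change as the disc ages. The groups used here are the input libraries of poly(A) RNA at 2 months, 10 months and 20 months, with 3 libraries at each age. None carried a genotype or a treatment in the labels. The labels state no strain, sex, disc level or pooling of animals, nor whether replicates came from separate animals, so p-values measure the spread between libraries, which may be technical. On fragments estimated from coverage, the median chi-square per gene between 2 replicates was 0.575 to 0.670 at 2 months and 0.558 to 0.665 at 10 months. Counting noise alone gives 0.455. At 20 months the value was 1.33 to 1.56, and the fit used below shares 1 estimate of spread over the 3 ages. The 9 immunoprecipitated libraries are not analysed here, so the values below are RNA levels of the reader genes and say nothing of m6A itself or of protein.

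N6-methyladenosine (m6A) is a methyl mark on adenosines of messenger RNA that writer enzymes add and erasers remove. Readers are the proteins that bind marked RNA and pass the mark on to splicing, export, translation or decay. Proteins with a YTH domain bind the methylated base directly, while IGF2BP proteins, FMRP and HuR prefer marked transcripts or respond to the mark in other ways, and HNRNPA2B1 reads it in the nucleus.

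Depth lay between 4.77 and 5.04 gigabases in the 2-month libraries, between 4.35 and 4.74 in the 10-month ones and between 3.53 and 4.90 in the 20-month ones, with 11027 to 11447 genes at 1 FPKM or more. Of 13 tested markers of nucleus pulposus and notochord, 0 were higher and 9 lower at 10 against 2 months under both scalings, with a median log2 change of -0.35 as deposited. Of all tested genes 19% were higher and 11.4% lower there as deposited, or 15.1% and 14.5% after median-of-ratios scaling. At 20 against 2 months 1 was higher and 8 were lower as deposited, and 6 and 6 after scaling. The shares of all tested genes were 18.6% and 49.6% as deposited, and 31.1% and 31.2% after scaling. All the list's markers in the table summed to between 32436 and 33808 FPKM in the 2-month libraries, 27739 and 28041 in the 10-month ones and 27987 and 29293 in the 20-month ones. Tbxt, the notochord factor brachyury, averaged 2369, 2468 and 2184 FPKM at 2, 10 and 20 months, while Foxf1 and Pax1 averaged under 1 FPKM. The 20-month libraries stood apart from the others. Their commonest read length was 141 bases against 132, as inferred from coverage times length on transcripts with very few covered bases. Of their bases 80.1 to 80.9% lay on listed transcripts, against 85.6 to 86.1%. Ribosomal protein genes took between 19.1 and 19.8% of their summed FPKM, against 12.8 to 13.1% at 2 months and 15.2 to 15.3% at 10 months. In the deposited FPKM the median tested gene was lower at 20 months, by a log2 difference of -0.20 from 2 months and -0.23 from 10 months. Tests against 20 months are therefore also given after median-of-ratios scaling, which sets that median to about 0. Ranges of single libraries are in deposited FPKM unless stated. Age and these library features cannot be told apart.

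The starts of 4 member genes are shown first as examples. Igf2bp3, Fmr1 and Hnrnpa2b1 are among the readers whose changes from 2 months held under both scalings, as did those of Ythdc1 and Ythdc2, which are not printed, and Igf2bp2 is the paralog of Igf2bp3. Each sequence runs 5′ to 3′ on the gene's strand, from 250 bases before to 50 bases after the RefSeq start in build GRCr8, and capitals mark matches to 1 of 6 motifs on either strand.
Igf2bp3: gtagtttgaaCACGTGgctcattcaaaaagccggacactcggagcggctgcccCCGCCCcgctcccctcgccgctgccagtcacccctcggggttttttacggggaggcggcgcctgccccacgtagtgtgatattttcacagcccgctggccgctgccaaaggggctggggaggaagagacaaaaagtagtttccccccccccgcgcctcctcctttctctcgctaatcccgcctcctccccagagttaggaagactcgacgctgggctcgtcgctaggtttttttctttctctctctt
Igf2bp2: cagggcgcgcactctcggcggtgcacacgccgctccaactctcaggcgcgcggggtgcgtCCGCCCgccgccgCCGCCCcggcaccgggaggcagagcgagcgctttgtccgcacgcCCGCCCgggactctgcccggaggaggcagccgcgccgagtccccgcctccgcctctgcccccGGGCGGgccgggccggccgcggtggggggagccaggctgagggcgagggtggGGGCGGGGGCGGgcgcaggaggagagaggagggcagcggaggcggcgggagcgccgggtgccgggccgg
Fmr1: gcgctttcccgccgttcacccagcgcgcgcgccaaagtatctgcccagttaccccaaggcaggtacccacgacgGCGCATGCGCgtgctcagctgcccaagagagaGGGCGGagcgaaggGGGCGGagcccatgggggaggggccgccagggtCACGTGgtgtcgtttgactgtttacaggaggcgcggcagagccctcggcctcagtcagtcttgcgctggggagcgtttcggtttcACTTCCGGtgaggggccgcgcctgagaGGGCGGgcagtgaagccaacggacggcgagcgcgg
Hnrnpa2b1: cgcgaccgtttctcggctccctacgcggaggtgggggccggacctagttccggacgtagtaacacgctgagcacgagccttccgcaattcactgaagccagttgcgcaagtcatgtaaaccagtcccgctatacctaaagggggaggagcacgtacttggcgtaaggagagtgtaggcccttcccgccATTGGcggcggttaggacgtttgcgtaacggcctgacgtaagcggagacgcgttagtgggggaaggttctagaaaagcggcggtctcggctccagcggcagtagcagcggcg

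These windows lie at chr4:79525681-79525980 (minus strand), chr11:92378658-92378957 (plus strand), chrX:152284680-152284979 (plus strand) and chr4:81875837-81876136 (minus strand). The motifs searched were the GC box GGGCGG, the CCAAT box CCAAT, the TATA box TATAAA, the E-box CACGTG, the NRF1 core GCATGCGC and the ETS site CCGGAAGT, and matches could overlap. RefSeq gave a promoter for 9 of the 10 members, without Ythdf3. The one for Ythdc2 is on chromosome 18, whereas its deposited row is on chromosome 1. A GC box occurred in 5 of these 9, Ythdf1, Ythdf2, Igf2bp2, Igf2bp3 and Fmr1, and in 34.9% of 27457 promoters of the same length. Igf2bp2 held 6 GC boxes and Igf2bp3 held 1. A CCAAT box occurred in Ythdc2, Ythdf1, Elavl1 and Hnrnpa2b1, and in 37.7% of all promoters. None of the 9 held TATAAA, which 14.3% of all promoters held. Fmr1 was the member with an NRF1 core, found in 2.66% of all promoters, and with an ETS site, found in 4.01%. The E-box was in Ythdf1, Igf2bp3 and Fmr1 and in 6.65% of all promoters. The windows held 19 to 46 CpG dinucleotides, against a median of 7 over all promoters.

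At 10 months 6 readers were higher than at 2 months and 1 was lower. Ythdc1, Ythdc2, Hnrnpa2b1, Fmr1, Ythdf1 and Ythdf3 rose, Igf2bp3 fell, and Ythdf2, Igf2bp2 and Elavl1 did not pass the test. A gene was called at an adjusted p under 0.05 in limma's test on log2(FPKM + 1), a scale that understates the change of low genes. By the same rule 30.3% of tested genes were called, 19% as higher and 11.4% as lower. Without Igf2bp3 the count was 6 higher and 0 lower of 9. The median log2 fold change was 0.18 for the 10 readers and 0.22 without Igf2bp3, beside 0.04 over all tested genes. Median-of-ratios scaling gave 5 higher and 1 lower, beside 15.1% and 14.5% of genes (29.7% in all), since Ythdf1 was no longer called, and 5 higher and 0 lower without Igf2bp3.

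At 20 months against 2 months 4 readers were higher and 4 were lower in the deposited FPKM. Ythdc1, Ythdc2, Hnrnpa2b1 and Fmr1 were higher, and Ythdf2, Igf2bp2, Igf2bp3 and Elavl1 were lower. Of all genes 68.2% were called, 18.6% as higher and 49.6% as lower. After median-of-ratios scaling 6 readers were higher and 2 lower, beside 31.1% and 31.2% of genes (62.4% in all). The 4 higher readers stayed higher under that scaling and Ythdf1 and Ythdf3 joined them, while Igf2bp2 and Igf2bp3 stayed lower. Without Igf2bp3 there were 4 higher and 3 lower of 9 as deposited, and 6 and 1 after scaling.

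At 20 months against 10 months 1 reader, Fmr1, was higher and 5 were lower as deposited, beside 11.4% and 53.3% of genes (64.7% in all). After median-of-ratios scaling 5 were higher and 1, Igf2bp2, was lower, beside 26.8% and 25.7% (52.5% in all). Without Igf2bp3 these were 1 higher and 4 lower of 9 as deposited, and 5 and 1 after scaling. The 3 libraries of one age lay apart from those of the other, in deposited FPKM, for 7 readers at 10 against 2 months, 8 at 20 against 2 months and 6 at 20 against 10 months, or 6, 7 and 5 of 9 without Igf2bp3. The same was true of 53.8%, 70.4% and 67.9% of tested genes in these comparisons. After median-of-ratios scaling the 20-month libraries of Elavl1 and Ythdf2 overlapped those of both other ages, and those of Igf2bp3 overlapped the 10-month ones. For Hnrnpa2b1, Ythdc1, Ythdc2, Ythdf1 and Ythdf3 they then lay above those of both other ages. Fmr1 and Igf2bp2 stayed apart from both. The 3 comparisons share libraries, so they are not independent of one another.

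**Figure D1:**
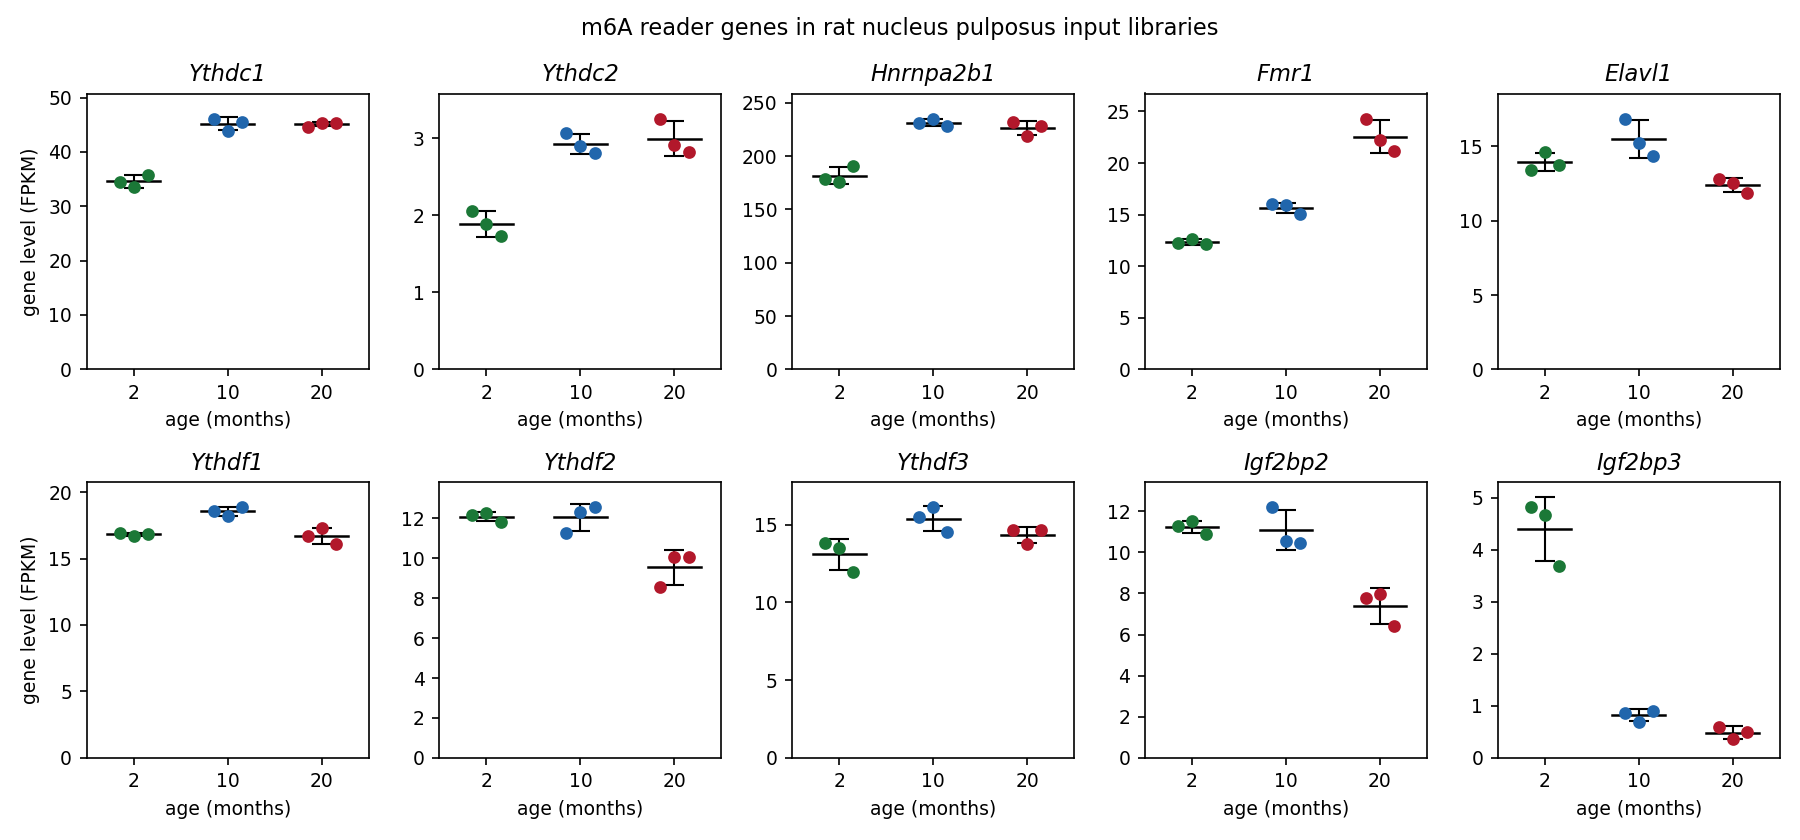
Level of each reader gene in FPKM (vertical axis, from 0) in each of the 9 input libraries by age in months; points are libraries, bars the mean and SD of 3. Igf2bp3 was under 1 FPKM in all libraries at 10 and 20 months, Fmr1 was highest at 20 months, and Ythdc1, Ythdc2 and Hnrnpa2b1 were higher at 10 and 20 months than at 2 months.

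**Figure D2:**
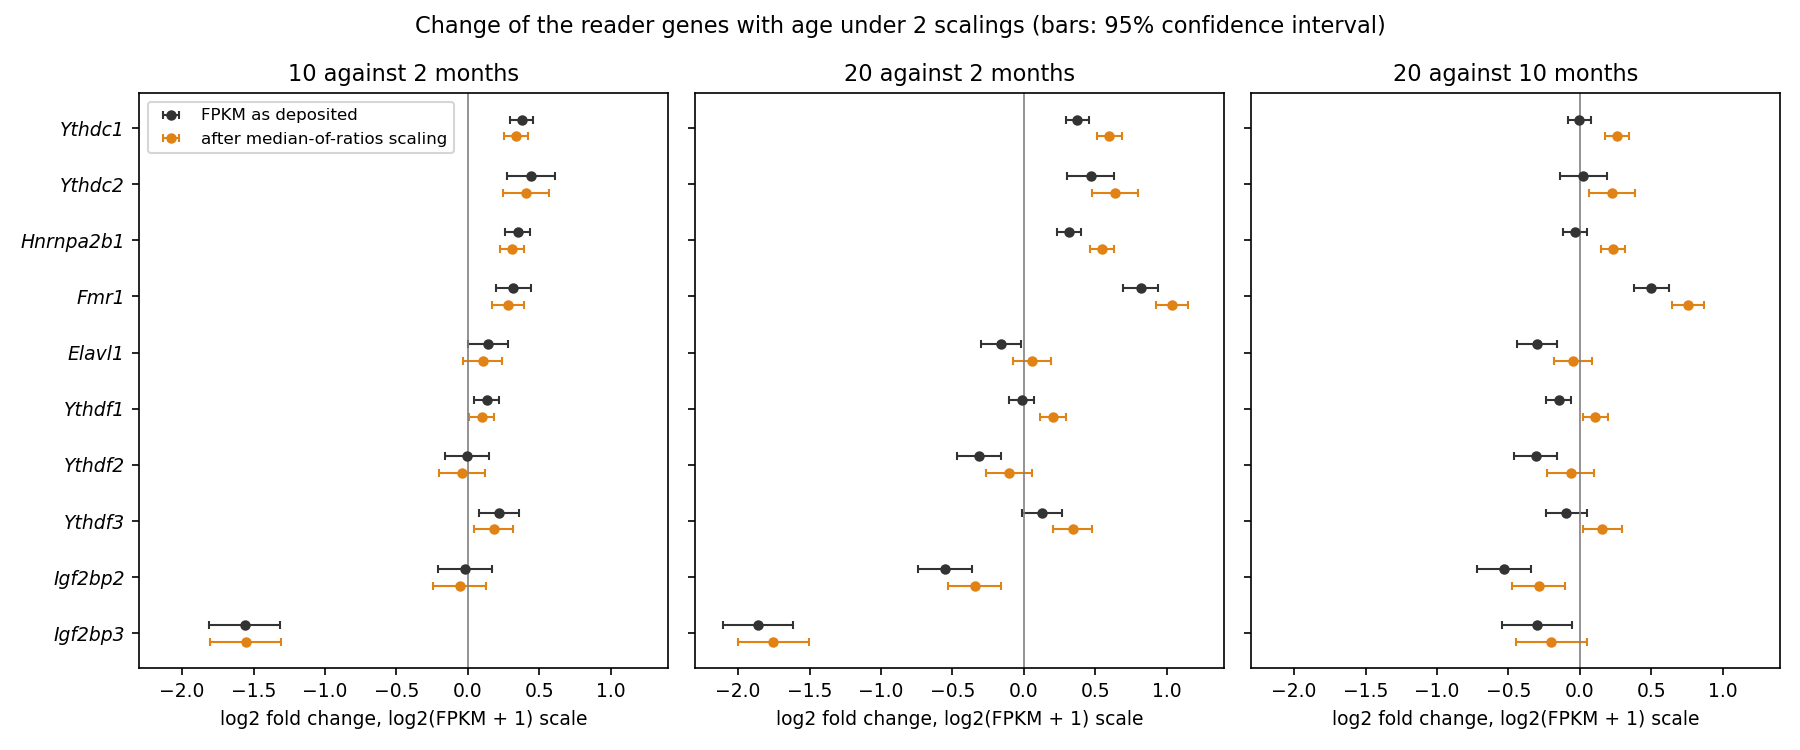
Log2 fold change of each reader gene on the log2(FPKM + 1) scale, with its 95% confidence interval, for the 3 comparisons of ages; dark points are FPKM as deposited and orange points the same after median-of-ratios scaling. The scaling moved the 20-month comparisons upward for every gene shown, and the sign of Ythdf1 and Elavl1 at 20 against 2 months changed with it.

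Hnrnpa2b1 was the most abundant reader at every age. Its protein binds RNA in the nucleus and takes part in splicing and in microRNA processing. The gene (ENSRNOG00000011175, chr4:81237496-81241282 on the minus strand of the deposited table, of a genome build that the sources used here do not name) had 179, 176 and 190 FPKM at 2 months, 231, 235 and 228 at 10 months and 232, 219 and 228 at 20 months. All 3 libraries at 2 months lay below the other 6, and those of 10 and 20 months overlapped as deposited. The log2 fold change was 0.35 ± 0.04 at 10 against 2 months (SE; adjusted p = 2.60e-04) and 0.32 ± 0.04 at 20 against 2 months (adjusted p = 7.25e-05). After median-of-ratios scaling the 20-month change from 2 months was 0.55. Between 10 and 20 months it was -0.03 as deposited (adjusted p = 0.473) and 0.24 after scaling (adjusted p = 7.52e-04).

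Ythdc1, the nuclear YTH reader that acts in splicing and in export of marked RNA, was second at every age. The gene (ENSRNOG00000001996, chr14:22971836-23002011, minus strand) had 34.4, 33.5 and 35.8 FPKM at 2 months, 46.1, 43.8 and 45.6 at 10 months and 44.6, 45.3 and 45.4 at 20 months. Every library at 10 and 20 months lay above every library at 2 months. The mean was 30.7% higher at 10 months and 30.4% higher at 20 months than at 2 months, with log2 fold changes of 0.38 ± 0.04 (SE; adjusted p = 1.28e-04) and 0.37 ± 0.04 (adjusted p = 1.71e-05). After scaling the log2 change at 20 against 2 months was larger, at 0.60 ± 0.04 (SE; adjusted p = 1.67e-06). The change at 20 against 10 months was -0.0021 as deposited (adjusted p = 0.962) and 0.26 after scaling (adjusted p = 4.66e-04), so its direction depended on scaling. Over the 9 libraries Ythdc1 and Hnrnpa2b1 followed each other with a Pearson r of 0.97 on log2(FPKM + 1), a description across libraries of 3 ages.

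Ythdc2 encodes a YTH protein with an RNA helicase domain that is needed for meiosis in the mouse germ line. It was the lowest reader at 2 months, with 2.05, 1.88 and 1.72 FPKM, and had 3.06, 2.90 and 2.81 at 10 months and 3.25, 2.91 and 2.83 at 20 months. These values belong to a row at chr1:182085899-182140570 on the minus strand, while RefSeq lists Ythdc2 on chromosome 18. Whether that row holds the same gene was not tested. The 2-month libraries lay below the others, and the later ages overlapped as deposited. The log2 fold change was 0.44 ± 0.07 at 10 against 2 months (SE; adjusted p = 0.00223) and 0.47 ± 0.07 at 20 against 2 months (adjusted p = 3.94e-04, or 0.64 after scaling). At 20 against 10 months it was 0.02 (adjusted p = 0.781), and 0.23 after scaling (adjusted p = 0.0246). Within the YTHDC pair, Ythdc2 took 5.18 ± 0.529%, 6.08 ± 0.232% and 6.23 ± 0.497% of the summed FPKM at 2, 10 and 20 months (mean ± SD of 3 libraries).

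The YTHDF proteins bind marked messenger RNA in the cytoplasm. YTHDF2 brings the CCR4-NOT deadenylase to its targets by contacting CNOT1, and YTHDF1 and YTHDF3 have been tied to translation in human cell lines. Ythdf1 had 16.9, 16.7 and 16.9 FPKM at 2 months, 18.6, 18.2 and 18.9 at 10 months and 16.7, 17.3 and 16.1 at 20 months. As deposited, the 10-month libraries lay above all the others, which overlapped. Its rise at 10 months was 0.13 ± 0.04 on the log2 scale (SE; adjusted p = 0.0291) and was not called after scaling (0.10, adjusted p = 0.0964), nor with the replicate number as a block (adjusted p = 0.0611), nor without any 1 of the libraries at 2 or 10 months (adjusted p 0.0587 to 0.0927). At 20 against 10 months Ythdf1 was lower as deposited (-0.15, adjusted p = 0.00841) and higher after scaling (0.11, adjusted p = 0.0439).

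Ythdf3 had 13.8, 13.5 and 11.95 FPKM at 2 months, 15.5, 16.1 and 14.5 at 10 months and 14.7, 13.8 and 14.6 at 20 months. The 10-month libraries lay above those of 2 months, and the 20-month libraries overlapped both as deposited. Its change at 10 against 2 months was 0.22 ± 0.06 (SE; adjusted p = 0.0271). That call was lost without 2-month replicate 3, 10-month replicate 1 or 10-month replicate 2, with adjusted p between 0.0794 and 0.0967. At 20 against 2 months Ythdf3 did not pass the test as deposited (0.13, adjusted p = 0.10) and was higher after scaling (0.34, adjusted p = 9.79e-04).

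Ythdf2 had 12.2, 12.3 and 11.8 FPKM at 2 months, 11.3, 12.3 and 12.6 at 10 months and 8.54, 10.1 and 10.0 at 20 months. As deposited, the 20-month libraries lay below all others, and those of 2 and 10 months overlapped. Its log2 change was -0.0045 ± 0.07 at 10 against 2 months (SE; adjusted p = 0.968) and -0.31 ± 0.07 at both 20 against 2 months (adjusted p = 0.00259) and 20 against 10 months (adjusted p = 0.00311). After median-of-ratios scaling these were -0.10 (adjusted p = 0.242) and -0.06 (adjusted p = 0.490), so the fall of Ythdf2 was not called there.

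The share of each gene in the summed FPKM of the 3 YTHDF genes does not depend on how a library is scaled. Ythdf2 took 28.8 ± 0.407% at 2 months, 26.2 ± 1.26% at 10 months and 23.5 ± 1.83% at 20 months (means ± SD, 3 libraries per age), and the libraries of no 2 ages overlapped. Ythdf3 took 31.1 ± 1.5%, 33.4 ± 1.62% and 35.4 ± 1.69%, and Ythdf1 40.1 ± 1.19%, 40.4 ± 1.13% and 41.1 ± 1.45%. The Ythdf3 shares at 20 and 2 months did not overlap, and the Ythdf1 shares overlapped in every comparison. Two-sided exact permutation tests on these shares cannot go below p = 0.1 with 3 libraries against 3, and the 3 Ythdf2 comparisons each gave p = 0.1 (adjusted p = 0.188 over 15 comparisons).

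**Figure D3:**
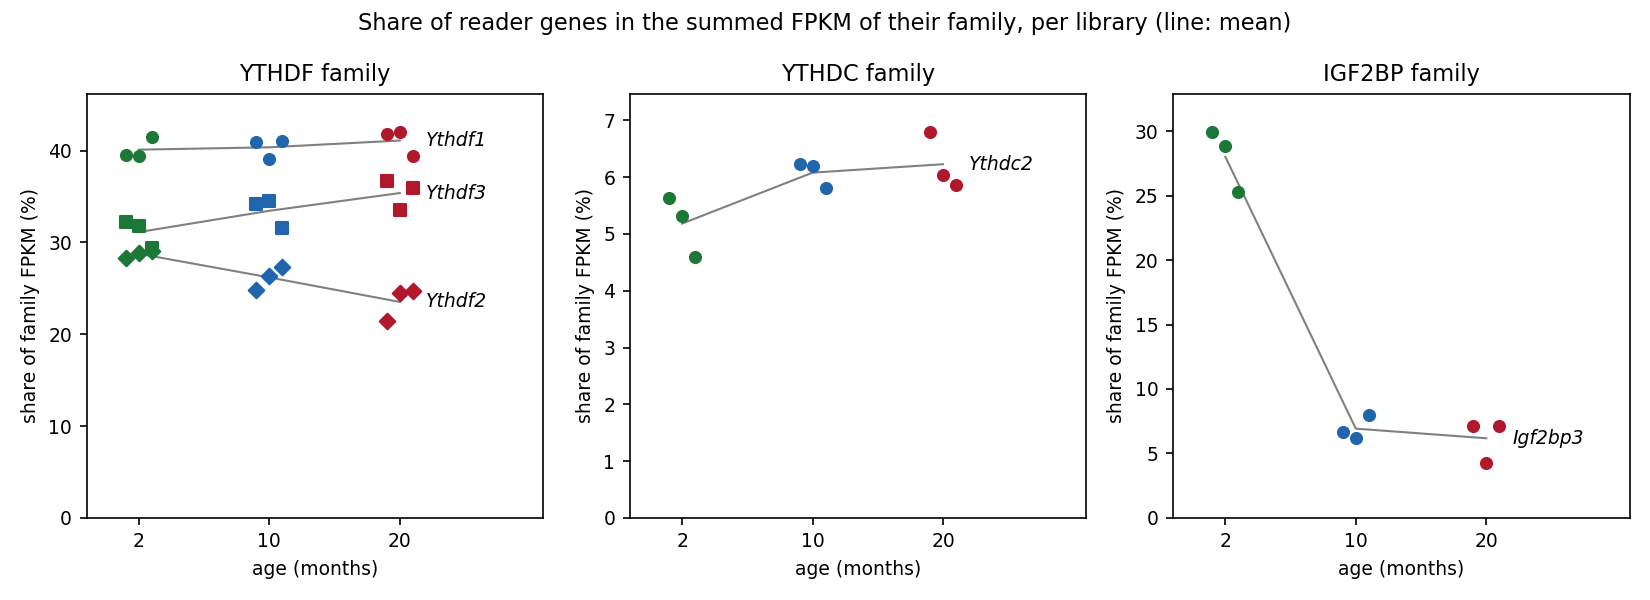
Share of a reader gene in the summed FPKM of its family (vertical axis, %, from 0) in each input library by age in months; points are libraries and lines join the means. Ythdf2 is lower at each later age, and Igf2bp3 is 25.3 to 29.9% of the IGF2BP pair at 2 months and 4.25 to 7.96% at later ages.

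Igf2bp3 had the largest fold change of the 10 readers and fell by 10 months, whereas Igf2bp2 was lower at 20 months than at both earlier ages. IGF2BP proteins bind marked messenger RNA and protect it from decay, and Igf2bp3 is best known from embryonic tissues and tumours. Igf2bp3 (ENSRNOG00000009052, chr4:78746547-78879294, minus strand) had 4.82, 4.67 and 3.69 FPKM at 2 months, 0.867, 0.694 and 0.907 at 10 months and 0.599, 0.354 and 0.491 at 20 months. As deposited, all libraries of each age lay apart from those of every other age. The mean at 10 months was 0.187 of the 2-month mean and the mean at 20 months 0.110 of it. The log2 fold change was -1.56 ± 0.11 at 10 against 2 months (SE; adjusted p = 3.12e-05) and -1.86 ± 0.11 at 20 against 2 months (adjusted p = 1.07e-06, or -1.75 after scaling). Igf2bp3 passed the filter only through its 2-month libraries, which favours these 2 tests. In limma with no filter on low values the adjusted p were 1.10e-04 and 5.60e-06. Igf2bp3 was covered on its main transcript, of 15 exons, by 18.3 to 25.1 reads per base in the 2-month libraries. At 10 months it was covered by 3.33 to 4.26 and at 20 months by 1.63 to 2.52. Its step at 20 against 10 months, -0.30 ± 0.11 (adjusted p = 0.0368), was not called after scaling (-0.20, adjusted p = 0.153), nor without 2-month replicate 2, 10-month replicates 1 or 3, or 20-month replicates 2 or 3 (adjusted p 0.0508 to 0.108). In a bulk tissue, fewer cells of a type and less RNA per cell cannot be told apart.

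Markers of the tissue itself and of red blood cells were lower at 10 against 2 months, as Igf2bp3 was. Of the nucleus pulposus and notochord markers 9 of 13 were called lower, as given above, and their part in the Igf2bp3 values was not tested. Red blood cell markers summed to between 82.9 and 93.2 FPKM in the 2-month libraries, 9.57 and 10.6 in the 10-month ones and 36.6 and 42.5 in the 20-month ones. Of these markers 4 of 4 tested were called lower at 10 against 2 months, beside 11.4% of all genes. Markers of cycling cells, with 5 of 5 in the table and 1 tested, summed to 2.96 to 4.19, 1.75 to 2.29 and 1.95 to 3.22 FPKM, and the 1 tested was not called at 10 against 2 months (log2 change -0.06). Mki67, which was not tested, averaged 0.458, 0.122 and 0.129 FPKM. Skeletal muscle markers summed to between 28.7 and 30.5 FPKM in the 2-month libraries and 19.8 and 21.6 in the 10-month ones, and the 6 tested did not pass the test at 10 against 2 months, with a median log2 change of -0.29. Macrophage and endothelial markers had higher sums in the 10-month libraries than in the 2-month ones. The macrophage sums were 14.8 to 15.7 FPKM in the 2-month libraries and 19.4 to 20.9 in the 10-month ones. Among the 3 macrophage markers tested, 1 was called higher and 0 lower, with a median log2 change of 0.002. The endothelial sums were 0.287 to 0.388 and 0.556 to 0.649 FPKM, with 0 markers tested. No marker of these lists was at 0 in all libraries. The part of the red cell, cycling, muscle, macrophage or endothelial markers in the Igf2bp3 values was not tested. Igf2bp1, the other member of the family, was not tested for its low level and averaged 0.529, 0.300 and 0.126 FPKM.

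Igf2bp2 (ENSRNOG00000025946, chr11:82466071-82621079, plus strand) had 11.3, 11.5 and 10.9 FPKM at 2 months, 12.2, 10.6 and 10.5 at 10 months and 7.78, 7.98 and 6.41 at 20 months. Its 20-month libraries lay below all the others. The log2 change was -0.02 ± 0.08 at 10 against 2 months (SE; adjusted p = 0.868), -0.55 ± 0.08 at 20 against 2 months (adjusted p = 3.27e-04) and -0.53 ± 0.08 at 20 against 10 months (adjusted p = 5.15e-04). The last 2 stayed called after scaling, at -0.34 (adjusted p = 0.00531) and -0.29 (adjusted p = 0.0162). Igf2bp3 made up 28.02 ± 2.44%, 6.92 ± 0.934% and 6.18 ± 1.67% of the summed FPKM of Igf2bp2 and Igf2bp3 at 2, 10 and 20 months (means ± SD of 3 libraries), and the 10- and 20-month libraries overlapped.

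Fmr1 rose at each step. Its protein, FMRP, binds messenger RNA at polysomes and represses translation, and its loss causes fragile X syndrome in people. Fmr1 (ENSRNOG00000057464, chrX:154684935-154722314, minus strand) had 12.2, 12.7 and 12.1 FPKM at 2 months, 15.98, 15.90 and 15.04 at 10 months and 24.3, 22.2 and 21.2 at 20 months. No library of one age reached the range of another. The log2 fold change was 0.32 ± 0.05 at 10 against 2 months (SE; adjusted p = 0.00252), 0.82 ± 0.05 at 20 against 2 months (adjusted p = 1.92e-06) and 0.50 ± 0.05 at 20 against 10 months (adjusted p = 5.40e-05). After scaling these were 0.28, 1.04 and 0.76. The mean at 20 months was 82.8% above that at 2 months, and the gene moved from place 6 at 2 months to place 3 at 20 months in the order of reader levels.

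Elavl1 encodes HuR, which binds AU-rich elements and stabilises messenger RNA. It had 13.4, 14.6 and 13.8 FPKM at 2 months, 16.9, 15.2 and 14.4 at 10 months and 12.8, 12.5 and 11.9 at 20 months. As deposited, the 20-month libraries lay below the rest, and those of 2 and 10 months overlapped. As deposited Elavl1 was lower at 20 months than at 10 months (-0.30 ± 0.06, SE; adjusted p = 0.00244) and 2 months (-0.16 ± 0.06, adjusted p = 0.0463). After scaling neither was called, at -0.05 (adjusted p = 0.535) and 0.06 (adjusted p = 0.430). Leaving out any 1 of 6 libraries, the 3 at 2 months, 10-month replicate 2 or 20-month replicates 2 and 3, also lost the second call (adjusted p 0.0552 to 0.149).

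Per unit length, Hnrnpa2b1 and Ythdc1 led the order of levels at each age, and their neighbours in that order did not overlap. At 2 months Ythdf1 came next, and then Elavl1, Ythdf3, Fmr1 and Ythdf2, each overlapping the next. Igf2bp2, Igf2bp3 and Ythdc2 followed without overlap. At 10 months Igf2bp3 was the lowest reader, and Fmr1, Elavl1 and Ythdf3 overlapped in turn, as did Ythdf2 and Igf2bp2. At 20 months the order was Hnrnpa2b1, Ythdc1, Fmr1, Ythdf1, Ythdf3, Elavl1, Ythdf2, Igf2bp2, Ythdc2 and Igf2bp3, with no overlap between neighbours.

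The isoform table lists more than 1 transcript for Fmr1, Hnrnpa2b1 and Igf2bp3. Use of a transcript was tested as the log2 ratio of its FPKM to that of the gene's other transcripts, over 2765 transcripts of 1322 genes. In limma 0 of the 4 tested reader transcripts were called in any comparison, with 0 also at an unadjusted p under 0.05. The 4 were 2 of Fmr1 and 2 of Hnrnpa2b1, so each gene gave 1 test per comparison, with the sign turned for its other transcript. The SE of the log2 ratio change was 1.09 for Fmr1. Of all tested transcripts 0.253% were called at 10 against 2 months, 10.8% at 20 against 2 months and 6.98% at 20 against 10 months. The 2 Fmr1 transcripts, of 16 exons and 4183 bases and of 17 exons and 4185 bases, are nearly alike, so the authors' estimate may split their reads uncertainly. The 16-exon transcript had 4.94, 4.23 and 5.42 FPKM at 2 months, 10.0, 6.66 and 5.96 at 10 months and 13.4, 13.6 and 1.01 at 20 months. In 20-month replicate 3 it made up 4.64% of the Fmr1 transcript FPKM, against 53.8 and 59.9% in the other 20-month libraries. That library also had 274 FPKM of skeletal muscle markers, against 4.55 and 4.89 in the other 20-month libraries. The part of either feature in the other was not tested. Fmr1 stayed called in every comparison when any 1 of the 9 libraries was left out.

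The spread of the log2 ratio within an age was 1.47 for Fmr1, higher than in 85.0% of the tested transcripts, and 0.181 for Hnrnpa2b1, higher than in 17.3%. The longer Hnrnpa2b1 transcript, of 10 exons and 1059 bases, made up 71.1, 71.1 and 75.4% of the gene's transcript FPKM at 2 months, 76.4, 72.5 and 78.6% at 10 months and 72.4, 74.7 and 72.5% at 20 months. The ages overlapped. The short Igf2bp3 transcript, of 4 exons and 510 bases, had 0 FPKM in 5 of 9 libraries and at most 0.285 FPKM in the rest.

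**Figure D4:**
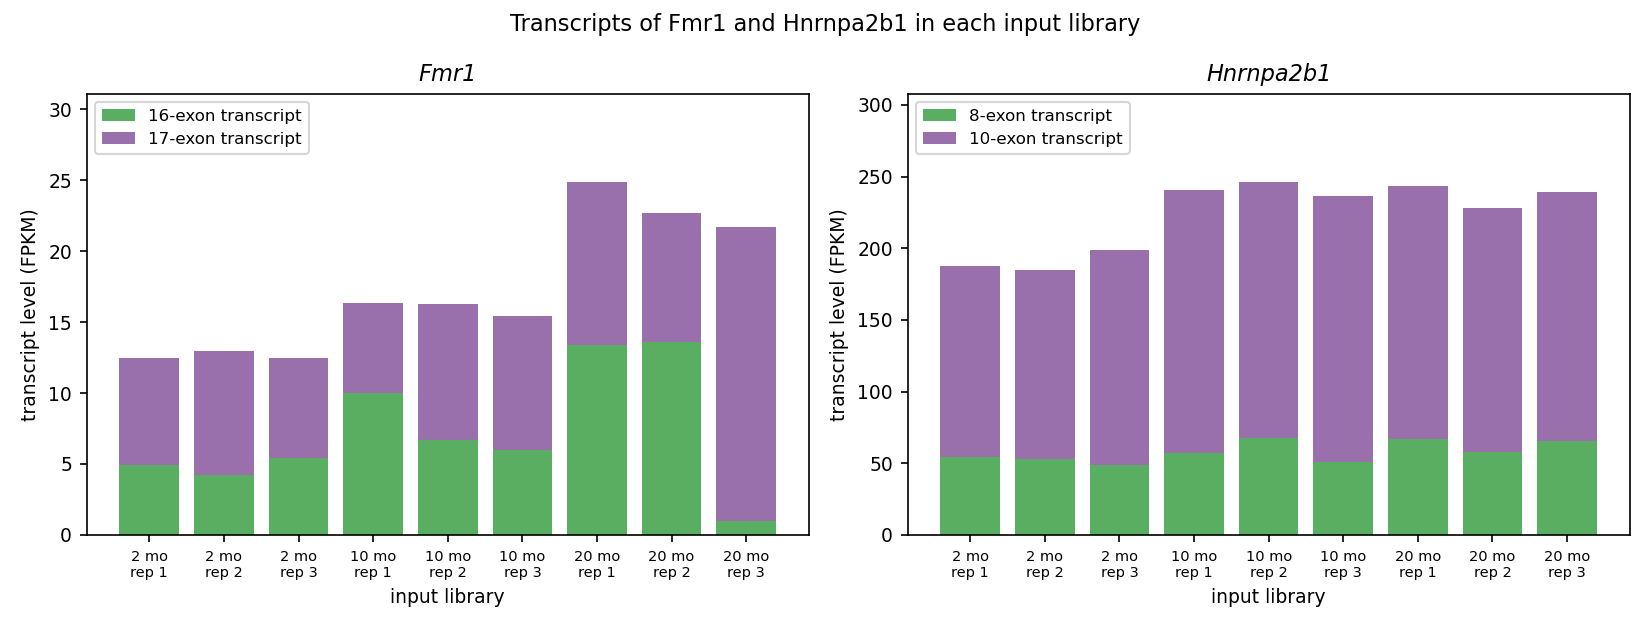
FPKM of the transcripts of Fmr1 and Hnrnpa2b1 (vertical axis, from 0, stacked) in each input library. The 20-month Fmr1 bars are the tallest, and in 20-month replicate 3 the 16-exon transcript is at 1.01 FPKM while the gene total is like that of the other 2 libraries.

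The genes around the readers were read from lists of known partners. The nuclear readers' partners, 12 tested of 13 listed, gave 10 higher and 0 lower at 10 against 2 months, or 9 and 0 after scaling, with a median log2 change of 0.26 as deposited, beside 0.04 over all genes. Over all tested genes the shares called higher and lower were 19% and 11.4% in that comparison, or 15.1% and 14.5% after scaling. The thirteenth name is another name of Khdrbs1 on the list. At 20 against 2 months 8 were higher and 2 lower as deposited, and 10 and 0 after scaling, where the median was 0.50, beside 18.6% and 49.6% of all genes as deposited and 31.1% and 31.2% after scaling. At 20 against 10 months 3 were higher and 3 lower as deposited, with a median of -0.03 beside -0.23 over all genes. After scaling 9 were higher and 1 lower, with a median of 0.23 beside 0.0006. Of all genes 11.4% were higher and 53.3% lower as deposited, and 26.8% and 25.7% after scaling. Srsf1, a splicing factor of the SR family, averaged 20.8 ± 0.949, 27.8 ± 1.15 and 34.6 ± 1.73 FPKM at 2, 10 and 20 months (means ± SD of 3 libraries). Srsf10, which YTHDC1 binds in human cells, averaged 17.9 ± 0.756, 20.7 ± 0.123 and 26.2 ± 0.312 FPKM, and Srsf7 28.8 ± 2.27, 35.7 ± 0.588 and 46.8 ± 4.83 FPKM. All 3 passed the test as higher in the 3 comparisons under both scalings.

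The CCR4-NOT and decay factors, 24 tested of 25, gave 3 higher and 0 lower at 10 against 2 months under both scalings, beside 19% and 11.4% of all genes as deposited. At 20 against 2 months 2 were higher and 16 lower as deposited, with a median log2 change of -0.36, and 7 higher and 9 lower after scaling, with a median of -0.15, beside about 0 over all genes. Of all genes 18.6% were higher and 49.6% lower as deposited, and 31.1% and 31.2% after scaling, so the scaled counts lay near the share over all genes. Cnot1, the scaffold of the complex that YTHDF2 contacts, averaged 30.5 ± 0.441, 31.9 ± 0.473 and 19.7 ± 0.207 FPKM at 2, 10 and 20 months, and was lower at 20 against 2 months by a log2 change of -0.61 (adjusted p = 5.85e-07) or -0.39 after scaling (adjusted p = 1.08e-05). Cnot9, a CCR4-NOT subunit, and Ddx6, a helicase that promotes decapping, were lower at 20 against 2 months as well, by -0.52 and -0.49, or -0.30 and -0.27 after scaling, and all passed the test.

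The partners of IGF2BP, FMRP and HuR, 19 tested of 20, gave 5 higher and 1 lower at 10 against 2 months, but 1 and 1 after scaling, beside 19% and 11.4% of all genes as deposited and 15.1% and 14.5% after scaling. In the comparison of 20 with 2 months 6 were higher and 8 lower, or 8 and 7 after scaling, beside 18.6% and 49.6%, or 31.1% and 31.2%, of all genes. Matr3, which binds RNA in the nuclear matrix, averaged 23.1 ± 1.27, 33.6 ± 2.97 and 40.9 ± 1.13 FPKM. Anp32b, an acidic nuclear protein of a family that binds HuR, averaged 350 ± 28.9, 399 ± 10.4 and 639 ± 38.0 FPKM, and Tnpo1, which imports RNA-binding proteins into the nucleus, 14.6 ± 0.250, 16.1 ± 0.293 and 8.79 ± 0.410 FPKM. Tnpo1 was lower and the other 2 higher at 20 against 2 months under both scalings.

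The other m6A-binding or m6A-sensitive RNA-binding proteins, 24 tested of 28, gave 13 higher and 0 lower at 10 against 2 months, or 9 and 0 after scaling, beside 19% and 11.4% of all genes, or 15.1% and 14.5% after scaling. By 20 months 11 were higher and 6 lower than at 2 months, or 16 and 2 after scaling, beside 18.6% and 49.6% of all genes, or 31.1% and 31.2% after scaling. Eif3a, a subunit of the initiation factor eIF3, averaged 39.9 ± 0.891, 50.8 ± 0.635 and 64.9 ± 4.63 FPKM, and Prrc2a, an m6A reader in mouse brain, 35.5 ± 0.585, 36.9 ± 0.128 and 26.4 ± 0.332 FPKM. Hnrnpul1, a relative of HNRNPU, averaged 67.2 ± 1.67, 69.4 ± 0.50 and 50.5 ± 2.16 FPKM. At 20 against 2 months Eif3a was higher and the other 2 were lower under both scalings. Writers and erasers, all 13 tested, gave 1 higher and 1 lower at 10 against 2 months, or 0 and 1 after scaling. Of the same 13 genes 1 was higher and 4 were lower at 20 against 2 months, or 6 and 2 after scaling, beside the same shares of all genes. Virma, the scaffold of the writer complex, averaged 8.73 ± 0.150, 8.53 ± 0.304 and 5.04 ± 0.243 FPKM, and Alkbh5, an eraser, 25.3 ± 0.610, 26.2 ± 0.914 and 19.4 ± 0.282 FPKM; these were lower at 20 against 2 months under both scalings. Mettl3, the catalytic writer, averaged 15.7 ± 0.323, 15.3 ± 0.0679 and 12.8 ± 0.490 FPKM and was lower as deposited (-0.27) but not called after scaling (-0.06, adjusted p = 0.250). Of the fetal growth genes linked to IGF2BP, 2 of 7 were tested, Hmga1 and Igf1r. At 10 against 2 months 1 was higher and 0 lower under both scalings, beside the shares of all genes given above. Igf1r was lower at 20 against 2 months, by -0.47 as deposited and -0.25 after scaling, and 0 were higher. At 20 against 10 months 0 were higher and 2 lower, or 0 and 1 after scaling. Of all genes 11.4% were higher and 53.3% lower there, or 26.8% and 25.7% after scaling.

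**Figure D5:**
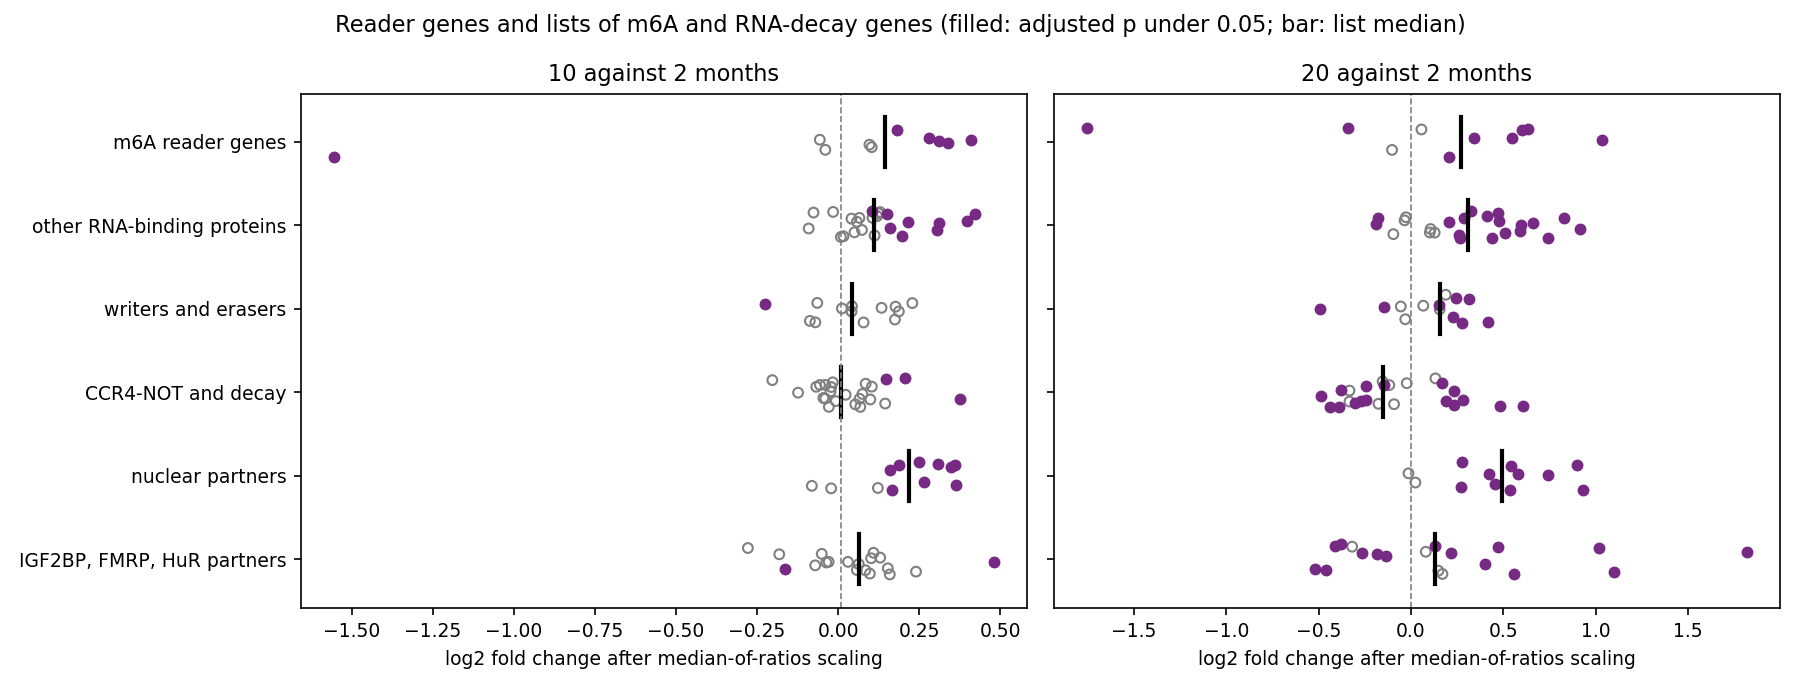
Log2 fold change after median-of-ratios scaling (horizontal axis) for the 10 reader genes and the tested genes of 5 lists, at 10 against 2 months (left) and 20 against 2 months (right); filled points passed the test at an adjusted p under 0.05 and the black bar is the list median. The nuclear partners have the highest median of the 6 rows in both panels, and the CCR4-NOT and decay list has the lowest at 20 against 2 months.

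The genes most like 3 readers in their pattern over the 9 libraries, of 7123 genes at a mean of 5 FPKM or more, were found by Pearson r on log2(FPKM + 1), as a description of libraries from the same 3 ages. Closest to Igf2bp3 were H1f10, a linker histone, with r = 0.993 and 11.7, 4.51 and 3.81 FPKM at 2, 10 and 20 months, and Asap1, a GTPase-activating protein, with r = 0.989. Closest to Fmr1 were Rbm26, an RNA-binding protein, with r = 0.994 and 2.56, 4.38 and 8.82 FPKM, and Rpl24, a ribosomal protein, with r = 0.993. Closest to Igf2bp2 were Tbl1x, part of a corepressor complex, with r = 0.990, and Txndc11, a thioredoxin-domain protein, with r = 0.986.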

How the data were processed

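Input and m6A-immunoprecipitated libraries were made from fragmented poly(A) RNA, per the labels' protocols. The authors deposited FPKM per gene and, for each transcript, FPKM with read coverage (per the file headers). Tools listed, without roles, in the submitters' processing notes are HISAT2 2.0.4, cutadapt 1.9, edgeR, DESeq2 and StringTie 1.3.4d, and no genome build. The tables hold no counts, so no count test was run, and gigabases and reads per base were computed from the deposited coverage. Read length was inferred from that coverage too, and the estimated fragments rest on it.

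Genes at 1 FPKM or more in at least 3 of 9 input libraries were fitted with limma 3.58.1 (R 4.3.3; empirical Bayes with trend) on log2(FPKM + 1), in 1 fit over the 3 ages with no block, and p-values were adjusted by Benjamini-Hochberg over all 11708 genes. Transcript ratios had a pseudocount of 0.5, a summed FPKM of at least 5 and a share of 10 to 90%. The procedure was tested on simulated data. Alternatives covered pseudocount, filter, scaling, library weights, ages in the fit, replicate block and each library left out. The members and lists were chosen with earlier results of these data known. All members, up to 3 called genes per list with the smallest adjusted p at 20 against 2 months, and the 2 genes most like each of the 3 most variable members were named.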

Additional observations from a re-analysis of the deposited data

How the results depend on the processing

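Of the alternatives run for single members, 476 values kept direction and call. With the direction kept, 35 lost the call and 3 gained one, and 20 values changed sign, whatever their call. Among these, median-of-ratios scaling gave calls to Ythdf1 at 20 against 2 months and to Ythdc1 and Hnrnpa2b1 at 20 against 10 months. It took the call from Elavl1 at 20 against 2 months and turned that of Ythdf1 at 20 against 10 months. Fmr1 kept its calls in all 3 comparisons under all 18 alternatives, and Ythdc1, Hnrnpa2b1, Ythdc2 and Igf2bp3 kept theirs at 10 and 20 against 2 months under all alternatives that gave a value. For Igf2bp3 most alternatives kept the filter that it passed only through its 2-month libraries. After median-of-ratios scaling the lower readers at 20 against 2 months numbered 2, against 4 as deposited, and at 20 against 10 months 5 were higher and 1 lower, against 1 and 5. Scaling without ribosomal protein and mitochondrial genes left 3 lower at 20 against 10 months, and a mean of at least 5 FPKM left 0 lower at 10 against 2 months, because Igf2bp3 was then not tested.

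Log2 changes near 0 turned sign when single libraries were left out. At 10 against 2 months these ranged from -0.033 to 0.039 for Ythdf2 and from -0.087 to 0.014 for Igf2bp2, at 20 against 2 months from -0.037 to 0.012 for Ythdf1, and at 20 against 10 months from -0.023 to 0.013 for Ythdc1 and from -0.021 to 0.055 for Ythdc2. Scaling also turned signs. Median-of-ratios scaling gave 0.20 for Ythdf1 and 0.057 for Elavl1 at 20 against 2 months, and 0.26 for Ythdc1, 0.11 for Ythdf1, 0.16 for Ythdf3 and 0.24 for Hnrnpa2b1 at 20 against 10 months. The scaling without ribosomal protein and mitochondrial genes gave 0.017 for Ythdf2 at 10 against 2 months, 0.066 for Ythdf1 at 20 against 2 months, and 0.058 for Ythdc1 and 0.029 for Hnrnpa2b1 at 20 against 10 months. Array weights gave 0.0020 for Ythdc1 at 20 against 10 months. The cause was not tested beyond the construction of each alternative. With each library left out in turn, the family share difference ranged from -0.12 to 0.94 points for Ythdf1 at 10 against 2 months, from -0.13 to 0.33 points for Ythdc2 and from -1.24 to 0.22 points for Igf2bp3 at 20 against 10 months.

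No label says that the replicate number marks a shared animal or day. Deviations of same-numbered libraries of different ages had correlations between -0.040 and 0.049, and those of differently numbered ones between -0.073 and 0.063. A shared effect on few genes could be missed this way. With the replicate block 3185, 7859 and 7467 genes were called at 10 against 2, 20 against 2 and 20 against 10 months, against 3551, 7986 and 7576 without it, and 5 readers in place of 6 were higher at 10 against 2 months, without Ythdf1. The background at 10 against 2 months was larger in other fits. There 4807 genes were called with only those 2 ages in the fit and 5116 with array weights, and 6 readers were higher in each. Coverage of 1.63 to 2.52 reads per base on its main transcript limits Igf2bp3 at 20 months.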

Other observations

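The deposited gene table places Ythdc2 on chromosome 1, from 182085899 to 182140570, while RefSeq's GRCr8 annotation lists it on chromosome 18. The other 9 reader genes were on the same chromosome in both. The strand differed for Fmr1 and Ythdc2, on the minus strand as deposited and the plus strand in GRCr8, and for Elavl1, the other way round. The reason was not tested. Of the 10 listed genes nearest to Ythdc2 in the deposited table, 7 had a RefSeq match, and all 7 were on chromosome 1 there.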
